A study of Mus musculus with 4 samples.

Results

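The comparison set the hippocampus library titled DOCA-salt against the hippocampus library titled sham, 1 library each. Members were all cell barcodes of these libraries with at least 300 detected genes and at most 20% of UMIs (unique molecular identifiers, each counting 1 captured transcript) from mitochondrial genes. They numbered 22472 of the 44912 cells kept by the same rule in the whole series, 11241 from DOCA-salt and 11231 from sham hippocampus. The other 22440 cells came from sensory cortex libraries of the same design and serve here only for values side by side. All mice carried the wild-type (WT) genotype, and the labels give 3 mice per group without saying whether their cells were pooled. Ages, sexes, doses and the length of treatment are not given in the sources used here. Tissue was dissected on ice, and 3' droplet libraries were made with a SeekOne kit. The labels do not agree on treatment: a separate treatment field follows tissue in each library, so it contradicts the title of the hippocampus sham library and of the cortex DOCA-salt library. Groups below follow the titles, and every direction rests on them.

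DOCA-salt is a model of hypertension in which deoxycorticosterone acetate, a mineralocorticoid, is given together with extra dietary salt so that sodium and water are retained and blood pressure rises. The series title ties hypertension to hippocampal inflammation, cognitive impairment and the peripheral immune system. The hippocampus, which forms new memories, is served by capillaries whose endothelium and pericytes form the blood-brain barrier, by astrocytes that clear glutamate and wrap the vessels, by oligodendrocytes that make myelin, and by microglia, the resident macrophages. Each of these cells carries corticosteroid receptors and can switch on stress, interferon and cytokine programmes, so gene lists for those programmes were followed class by class.

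With 1 library per group there was no spread between replicates, no test was possible, and no difference below has a replicate check. A ratio is the DOCA-salt value over the sham value, and the parenthesis after it is an exact 95% interval for the counting error alone. It covers neither differences between animals nor those between library preparations. For a gene, the interval treats UMIs as independent, so spread between cells is left out too. Where few cells carry a gene, the interval can be too narrow. Depth was close, with 67572601 UMIs in the DOCA-salt library and 69946657 in the sham library, and medians of 5891 and 5798 UMIs and 2440 and 2379 genes per cell. The libraries shared 102 cell barcodes, and other pairs of libraries in the series shared 93 to 101. They stood apart in the largest clusters of microglia, oligodendrocytes, astrocytes and endothelial cells when cells were clustered without correction. Of the Leiden clusters that held most microglia, 1 had 2547 DOCA-salt and 3 sham cells and another had 1 and 2244. The oligodendrocyte clusters split likewise, at 3652 against 6, 7 against 3790 and 1 against 1194 cells. Other clusters were mixed, such as a pericyte cluster with 400 cells of each library, a border macrophage cluster with 110 and 109 and an endothelial cluster with 237 and 186. Of the gated cells in these, 74.1%, 94.5% and 58.3% belonged to the class named. The largest endothelial clusters split, at 894 against 28 and 2 against 750 cells. The split clusters could not carry the comparison of their classes, and cells were gated by markers instead. A cell joined the class for which it had the most of 8 markers, given at least 3 of them and at least 2 more than for any other of 18 classes. Ungated cells made up 12.8% of the DOCA-salt and 13.4% of the sham library. Gated microglia, oligodendrocytes and astrocytes held a median of 8 of their 8 markers, and endothelial cells and pericytes a median of 7. The hippocampal label itself could not be checked on neurons, since 5 DOCA-salt cells and 1 sham cell were gated as mature neurons.

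Glia and vessel cells filled both libraries, and the makeup differed. Oligodendrocytes were 34.7% of cells (33.8 to 35.6) in the DOCA-salt library and 46.1% (45.2 to 47) in the sham library, a ratio of 0.753 (0.722 to 0.785). Astrocytes were 13.8% of cells (13.2 to 14.5) in the DOCA-salt library and 7.08% (6.61 to 7.57) in the sham library, a ratio of 1.96 (1.79 to 2.13). The astrocyte share was thus higher and the oligodendrocyte share lower in the DOCA-salt library, while the corresponding cortex ratios were 1.15 and 0.926. Microglia were 25.3% of cells (24.5 to 26.1) in the DOCA-salt library and 21.5% (20.8 to 22.3) in the sham library, a ratio of 1.18 (1.11 to 1.24), beside 0.921 in cortex. Pericytes, the mural cells of capillaries, had a share ratio of 1.62 (1.27 to 2.06) with 186 and 115 cells, and the ratio was 0.999 when classes were taken from clusters. Only 74.1% of the gated cells in the pericyte cluster were pericytes. Endothelial cells, with 980 and 846 cells, had a ratio of 1.16 (1.05 to 1.27). Shares within a library are bound to sum to the whole, so a class can appear larger because another is smaller, and dissection or cell recovery cannot be told apart from tissue makeup.

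The rarer classes showed the widest gaps. Neutrophils, the granulocytes of blood and acute inflammation, numbered 37 DOCA-salt and 4 sham cells, a share ratio of 9.24 (3.32 to 35.7), beside 1.26 in cortex. T or NK cells numbered 54 and 19, and B cells 54 and 18, with ratios of 2.84 (1.66 to 5.07) and 3.0 (1.73 to 5.43). Their cortex ratios were 1.51 and 2.44. Monocytes or dendritic cells were seen only in the DOCA-salt library of the hippocampus, with 12 cells against 0 of 11231, which has an exact upper limit of 0.0328%. The cortex libraries held 3 and 3 of them. Border macrophages, which line the vessels and meninges, numbered 68 and 55. In the other direction, choroid plexus epithelium, which secretes cerebrospinal fluid, was represented by 1 DOCA-salt and 124 sham cells. Smooth muscle cells numbered 2 and 19, and immature neurons 21 and 53, a ratio of 0.396 (0.227 to 0.668). In cortex immature neurons numbered 8 and 4, a ratio of 1.95 (0.523 to 8.86). Ependymal cells numbered 54 and 61, a ratio of 0.884 (0.602 to 1.3) whose interval spans 1. The choroid plexus lies against the hippocampus in the ventricle, and how much of it each dissection took is not given in the sources used here.

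**Figure D1:**
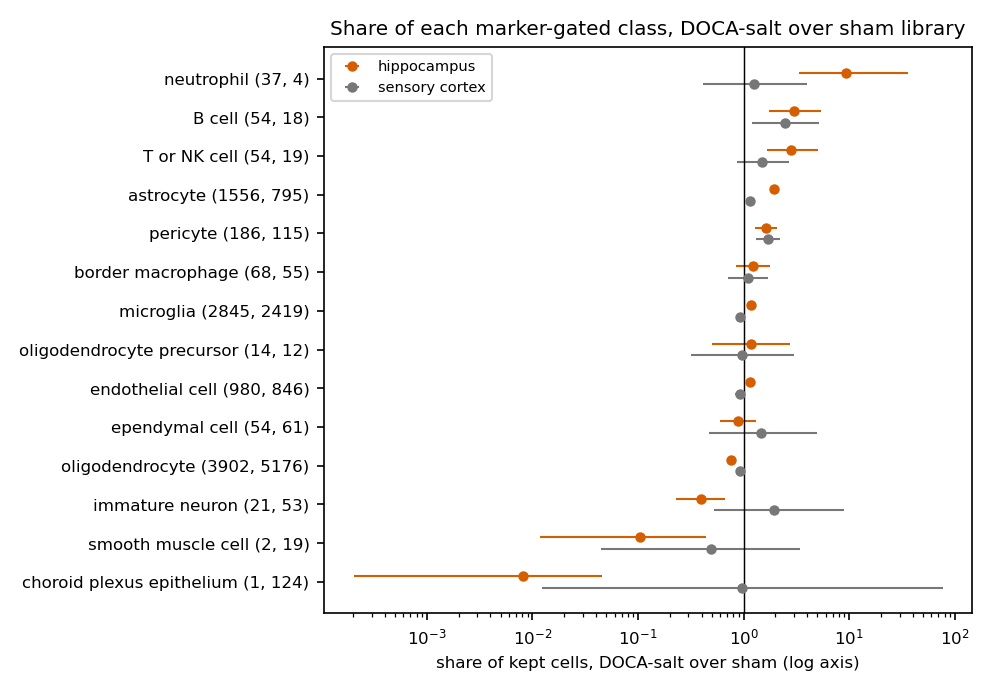
Ratio of the share of kept cells in each marker-gated class, DOCA-salt over sham library (horizontal axis, log scale), in hippocampus (orange) and sensory cortex (grey), with exact 95% intervals of counting error. The numbers of hippocampal cells (DOCA-salt, sham) stand beside each class name. Monocytes or dendritic cells, absent from the sham hippocampus library, are left out. In hippocampus the neutrophil, B cell, T or NK cell, astrocyte, pericyte, microglia and endothelial intervals lie above 1, and those of oligodendrocytes, immature neurons, smooth muscle cells and choroid plexus epithelium below 1.

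RNA of these unequal cell types was also present in cells gated to other classes, as happens with free RNA in droplets, and its level differed between the libraries in each class. Expression below is in CPM, the UMIs of a gene summed over the cells of a class, per 1000000 UMIs of that class. Transthyretin, Ttr, the main secreted protein of choroid plexus, was at 22.8 CPM in DOCA-salt and 3546 CPM in sham oligodendrocytes, and at 30.1 and 3810.1 CPM in microglia. The 8 choroid plexus markers together reached 2.51 CPM in DOCA-salt and 35 CPM in sham endothelial cells. Summed oligodendrocyte markers in DOCA-salt cells were 0.683 times the sham level in microglia, 0.615 in endothelial cells, 0.627 in astrocytes and 0.533 in pericytes. Summed astrocyte markers were 1.91 times the sham level in oligodendrocytes, 1.75 in microglia, 2.07 in endothelial cells and 1.97 in pericytes. Neutrophil markers summed to 568 CPM in DOCA-salt and 8.93 CPM in sham oligodendrocytes. The rule for naming required a level of at least 0.2 of that in whichever of the 5 large classes held the highest CPM. It took no account of rare classes, so choroid plexus and neutrophil transcripts passed it and are pointed out where they are named.

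A gene counted as measured in a class when both libraries together held at least 50 UMIs of it, and as higher or lower when its ratio was at least 1.5-fold in either direction. Over all cells 16876 genes were measured, of which 1964 were higher in the DOCA-salt library (11.6%) and 747 lower (4.43%), so that 72.4% of these calls were higher. With the class makeup of both libraries set equal, 860 were higher and 675 lower, and 56.0% of calls were higher. That setting weights up classes with few cells, such as choroid plexus epithelium with 1 DOCA-salt cell. Within oligodendrocytes, 968 of 13290 measured genes were higher (7.28%) and 374 lower (2.81%). Microglia had 511 higher (4.11%) and 469 lower (3.77%) of 12437, endothelial cells 592 (5.93%) and 322 (3.22%) of 9987, and astrocytes 552 (4.69%) and 380 (3.23%) of 11775. Pericytes, the smallest class followed in full, had 254 higher (7.01%) and 216 lower (5.96%) of 3625. These percentages are the background for every list count below, and the median log2 ratio of all measured genes lay between -0.02 in microglia and 0.05 in oligodendrocytes. Low counts filled the calls: in oligodendrocytes 2.92% of genes above the median UMI sum and 17.3% of those below it passed 1.5-fold.

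A small set of genes lay on one side of 1 in all 5 large classes (oligodendrocytes, microglia, endothelial cells, astrocytes and pericytes, in which order values are given). Of 2121 genes that could be named in all 5, 7 had intervals above 1 and 11 below 1 in each class. Among these only Ttr passed 1.5-fold in all 5. Rabgef1, an exchange factor for Rab5 in endosomes, was at 53.6 CPM in DOCA-salt and 19.6 CPM in sham oligodendrocytes, at 70.3 and 56.5 in microglia and at 89.4 and 17.9 in astrocytes. Its ratios were 2.73, 1.24, 2.57, 5.0 and 2.58. The interval was 3.96 to 6.39 in astrocytes, where the gap was widest, and 1.13 to 1.36 in microglia, where it was narrowest. In cortex the same classes had ratios of 4.69 and 1.05. Cdk8, the kinase of the Mediator complex, had ratios of 1.33, 1.36, 1.38, 1.28 and 1.76, and Gnb1l, a WD-repeat protein, ratios of 1.42, 1.22, 2.42, 1.49 and 2.29. The other 4 were AY036118, Cmss1, Ddx3x and Son, all between 1.03 and 1.49. AY036118 and its neighbour Gm42418 are known to collect reads of ribosomal RNA, so that their counts are uncertain.

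Of the 11 shared lower genes, the naming rule reaches 10, among them Ttr and 3 cytosolic chaperones. Hsp90ab1, the constitutive cytosolic Hsp90, was at 1965 CPM in DOCA-salt and 3067 CPM in sham oligodendrocytes and at 1607 and 2521 in microglia, with ratios of 0.641, 0.638, 0.789, 0.809 and 0.724 over the 5 classes. Stip1, the co-chaperone that links Hsp70 to Hsp90, had ratios of 0.60, 0.762, 0.747, 0.823 and 0.558, and Hspa8, the constitutive Hsp70, of 0.678, 0.693, 0.958, 0.67 and 0.781. Pdia6, a disulfide isomerase of the endoplasmic reticulum, had ratios of 0.787, 0.74, 0.667, 0.671 and 0.595, and P4ha1, a prolyl hydroxylase for collagen, of 0.728, 0.65, 0.801, 0.864 and 0.636. Tsc22d3, the glucocorticoid-induced leucine zipper GILZ, stood out by its spread between classes: 154 CPM in DOCA-salt and 462 CPM in sham astrocytes, 177 and 403 in endothelial cells, and 223 and 269 in microglia. The ratios were 0.673, 0.829, 0.438, 0.334 and 0.504, with an interval of 0.312 to 0.357 in astrocytes, the lowest. Cox6c and Atp6v0b, subunits of cytochrome oxidase and of the vacuolar proton pump, differed by less than 1.5-fold in each class.

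Ubb, a polyubiquitin gene, was among the shared lower genes with ratios of 0.679, 0.865, 0.859, 0.88 and 0.918, but its counts are uncertain. The processed copy Gm8797 on chromosome 3 is 98.2% identical to a Ubb transcript over 384 bases. Over all cells it was at 729 CPM in the DOCA-salt and 32.2 CPM in the sham library, 22.7 times the sham level (21.7 to 23.6), and 35.3 times in cortex. Ubb and its copy thus lay on opposite sides of 1. Summed with Gm8797 and another copy, Gm1821, Ubb had ratios of 0.864 in oligodendrocytes, 1.10 in microglia and in endothelial cells, 1.12 in astrocytes and 1.16 in pericytes, so its direction held in oligodendrocytes alone. This sum was chosen after the values were seen.

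**Figure D2:**
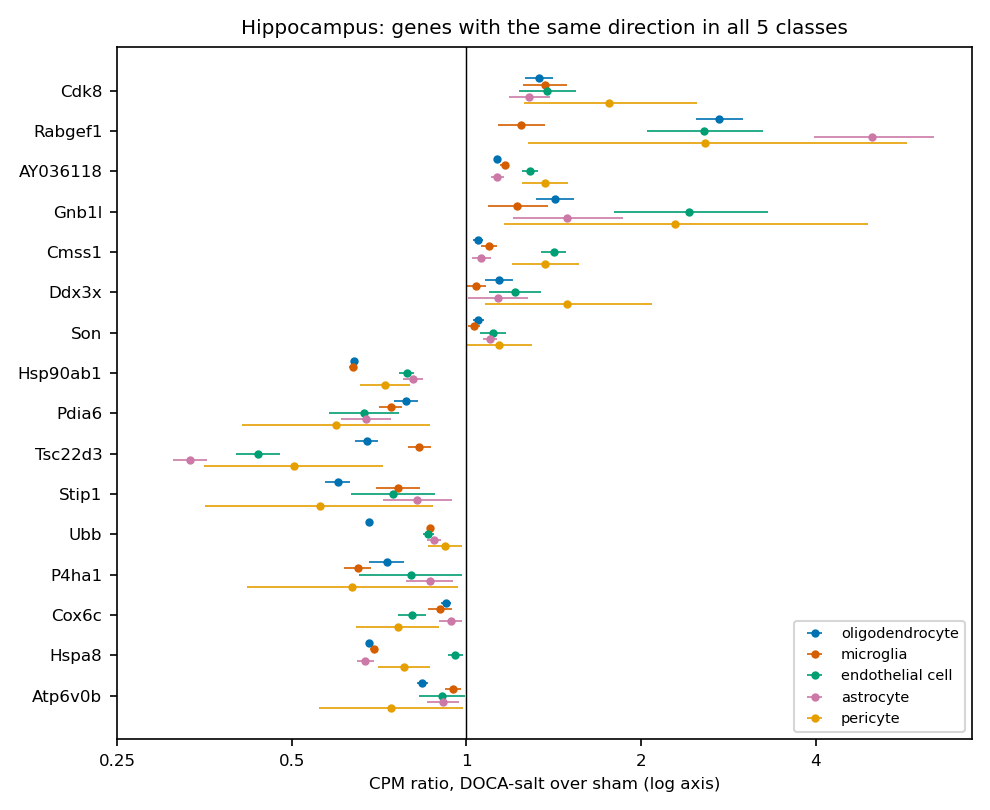
CPM ratio of DOCA-salt over sham (horizontal axis, log scale) for the genes whose intervals lay on one side of 1 in all 5 classes, Ttr left out, with 1 point per class (colour) and bars for exact 95% intervals of counting error. Rabgef1 has its highest ratio in astrocytes, at 5.0, and Tsc22d3 its lowest there, at 0.334, and pericyte bars are the widest for most genes.

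In microglia the 5 genes with the highest ratios, ranked by the interval bound nearest to 1, were Dpys, Slc15a2, Cntn4, Slc1a3 and Ccr6. Slc1a3 (chr15:8634124-8710764, GRCm38, as all gene positions here), which encodes the glutamate and aspartate transporter GLAST and is best known from astrocytes, was at 2109 CPM in DOCA-salt and 179 CPM in sham microglia, a ratio of 11.8 (11.3 to 12.3), beside 6.45 in cortex. After thinning each cell to 2000 UMIs, 92.9% (91.8 to 93.9) and 28.8% (26.9 to 30.7) of microglia held at least 1 Slc1a3 UMI, and unthinned 96% and 52.9%. In endothelial cells, which should lack it, the thinned shares were 21.4% and 8.33%. The median depth was 6105 and 5422 UMIs in microglia and 3992 and 3752 UMIs in endothelial cells. Astrocytes themselves held Slc1a3 at 3625 and 3476 CPM, a ratio of 1.04. Other astrocyte transcripts in microglia differed less: Slc1a2 was at 152 and 72.7 CPM and Aldoc at 158 and 73.6 CPM. Ranbp3l, 257 kb from Slc1a3 on chromosome 15 and not reached by the naming rule, was at 27.4 and 2.22 CPM in microglia, a ratio of 12.3 (8.45 to 18.6).

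Slc15a2 (chr16:36750177-36784962), the peptide transporter PEPT2, was at 211 CPM in DOCA-salt and 8.44 CPM in sham microglia, a ratio of 25 (20.7 to 30.5), and 28% (26.3 to 29.8) and 1.41% (0.957 to 1.99) of thinned cells held a UMI. Ccr6 (chr17:8236043-8257141), the receptor for the chemokine Ccl20, was at 109 and 8.74 CPM, a ratio of 12.5 (10.3 to 15.2). Cntn4 (chr6:105677660-106699310), a contactin of axon guidance, was at 54.1 and 1.99 CPM, a ratio of 27.2 (18.4 to 41.8). Astrocytes, which also express Slc15a2, held it at 506 and 231 CPM. These genes were thus low in sham microglia and detected in a minority of DOCA-salt microglia, such as 10.1% and 0.272% of thinned cells for Cntn4. Dpys (chr15:39768487-39857470), an enzyme of pyrimidine breakdown, had 106 UMIs in DOCA-salt and 0 in sham microglia, which is at least 26.6-fold higher at a floor of 3 counts per library. The cortex ratios of Slc15a2, Ccr6, Cntn4 and Dpys were 12.9, 14.3, 31.5 and 109, on the same side of 1.

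The 5 genes with the lowest ratios in microglia, Ecrg4, Wfdc2, Kcnj13, Calml4 and Adamts13, included 4 that choroid plexus epithelium of the sham library held at high levels, Ecrg4 at 2938 CPM, Calml4 at 859, Kcnj13 at 661 and Wfdc2 at 451. In microglia Ecrg4 was at 2.19 CPM in DOCA-salt and 36.5 CPM in sham cells. The choroid plexus list as a whole had a median log2 ratio of -3.99 in microglia, and its part in these genes was not tested. Adamts13, the protease that trims von Willebrand factor, had 7 and 54 UMIs, a ratio of 0.0976 (0.0375 to 0.215). Microglial identity genes differed little: of 19 measured homeostatic genes none was past 1.5-fold, with a median log2 ratio of -0.09, Tmem119 at 1154 and 1463 CPM and Fcrls at 1304 and 1604 CPM. Tmem119 and Fcrls were also gate markers of microglia, so their presence was partly set by the gate. Of 18 measured disease-associated microglia genes 1 was higher, Ccl6, at 141 and 92.6 CPM, and the median was 0.12. The 9 measured genes of MHC class II presentation were all within 1.5-fold, at a median of 0.25, with H2-Ab1 at 61 and 42.3 CPM. Chemokines split: Cxcl10, which draws in T cells, was at 586 and 1046 CPM and Ccl4 at 3452 and 4988 CPM, while Cxcl2, which draws in neutrophils, was at 90.1 and 55.8 CPM. Of 15 measured chemokines 4 were higher and 1 lower.

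Interferon-stimulated genes were lower in DOCA-salt microglia and endothelial cells. Type I interferon switches on antiviral genes through an element in their promoters, and the list held 25 such genes, of which 20 were measured in microglia and 23 in endothelial cells. In microglia the list counted 1 higher and 8 lower of 20 measured (background 4.11% and 3.77%), with a median log2 ratio of -0.33 against -0.02 over all measured genes. In endothelial cells it counted 0 higher and 14 lower of 23 measured (background 5.93% and 3.22%), with a median of -0.70 against 0.04. The endothelial counts in cortex were close, at 0 higher and 13 lower of 22, median -0.73, while cortex microglia had 1 higher and 1 lower of 20, median -0.08. Whether the microglial lists differ between tissues was not tested.

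Ifit1, which binds foreign RNA caps, was at 55.6 CPM in DOCA-salt and 156 CPM in sham microglia, a ratio of 0.356 (0.329 to 0.385), and at 44.3 and 95.4 CPM in endothelial cells, a ratio of 0.464 (0.387 to 0.555). After thinning, 7.0% (6.04 to 8.06) and 18.9% (17.3 to 20.6) of microglia held an Ifit1 UMI. The sums thus rest on a minority of cells in either library. Its relatives Ifit2, Ifit3 and Ifit3b had microglial ratios of 0.386, 0.357 and 0.235. Ifit3 and Ifit3b are near copies among which reads can be split; summed, they were at 17.1 and 53.5 CPM in microglia, a ratio of 0.319 (0.278 to 0.366), beside 1.22 in cortex. Isg15, a ubiquitin-like modifier, was at 365 and 683 CPM in microglia, and 32.9% and 50.5% of thinned cells held a UMI; it was named after its value was seen. In endothelial cells Bst2, the tetherin that holds back budding virus, was at 170.0 and 341 CPM and Cmpk2, a mitochondrial nucleotide kinase, at 14.6 and 36.7 CPM. Exceptions were Ifi27l2a in microglia, at 19.5 and 12 CPM, and Rsad2 in astrocytes, at 11.5 and 3.9 CPM. Astrocytes counted 1 higher and 0 lower of 18 measured with a median of 0.08, and oligodendrocytes 0 higher and 4 lower of 19 measured with a median of -0.13, so the list was not lower in every class. The oligodendrocyte median had no fixed sign, at 0.11 with equal weight per cell.

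Promoters of 12 listed genes hold a short element. The windows below are the 100 bases around it, 5' to 3' on the gene's strand, from RefSeq (GRCm38.p6), upstream of the start site; capitals mark the core of the interferon-stimulated response element, searched on both strands as GAAA, any 2 bases, GAAA. They are shown because 4 of the 5 genes were lower in microglia or endothelial cells and Rsad2 was the exception in astrocytes.
Ifit1: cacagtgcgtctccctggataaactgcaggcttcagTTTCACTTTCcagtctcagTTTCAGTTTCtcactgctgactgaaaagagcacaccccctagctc
Ifit3: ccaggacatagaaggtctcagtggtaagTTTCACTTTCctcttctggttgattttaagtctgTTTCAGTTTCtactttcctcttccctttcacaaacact
Isg15: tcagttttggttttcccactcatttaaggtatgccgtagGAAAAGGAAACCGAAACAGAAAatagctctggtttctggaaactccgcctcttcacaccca
Rsad2: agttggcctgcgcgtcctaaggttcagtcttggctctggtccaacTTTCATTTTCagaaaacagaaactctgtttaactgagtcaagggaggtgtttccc
The Ifit1 window lies at chr19:34640749-34640848 and the Ifit3 window at chr19:34583345-34583444 on the plus strand, the Isg15 window at chr4:156200836-156200935 and the Rsad2 window at chr12:26456518-26456617, both on the minus strand. The Ifit3b window, chr19:34607741-34607840, has the same 100 letters as that of Ifit3. In Ifit1 and Ifit3 the letters occur at 2 places, written in the windows as their reverse complement, and in Isg15 at 3 overlapping places. Of the 25 listed genes 19 had a promoter in the table and 12 of these held the letters, against 3.99% of all 27025 genes with a promoter (3.44% of 32851 promoters). The 12 include Bst2, Ddx58, Ifih1, Ifitm3, Oas1a, Stat2 and Trim30a, but not Ifit2 or Cmpk2. Ifit2, Ifit3, Ifit3b and Ifit1 also lie in this order on chromosome 19, with gaps of 7.11, 19.2 and 27.5 kb.

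In oligodendrocytes the 5 highest ratios by rule were those of Camp, Ngp, Elane, Zfp804b and Myh8. Camp and Ngp, granule proteins of maturing neutrophils, had 1736 and 1265 UMIs in DOCA-salt oligodendrocytes and 1 UMI each in sham, ratios of 2411 (432 to 95265) and 1757 (315 to 69433). Elane, neutrophil elastase, had 360 and 0 UMIs, at least 167-fold higher. After thinning, 0.843% of DOCA-salt oligodendrocytes held a Camp UMI. The 5 measured genes of the neutrophil RNA list were all higher in these cells, and 30 of the 3902 DOCA-salt oligodendrocytes held at least 5 UMIs of neutrophil genes, against 0 of 5176 in sham. Without such cells the log2 ratios were 7.49 for Camp and 7.67 for Ngp, against 11.24 and 10.78 with them.

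Zfp804b (chr5:6769010-7344756), a zinc finger gene, was at 78.5 CPM in DOCA-salt and 0.833 CPM in sham oligodendrocytes, a ratio of 94.3 (65.4 to 141), beside 40 in cortex. It was seen in 11.2% (10.1 to 12.2) and 0.184% (0.084 to 0.348) of thinned oligodendrocytes, and in 0.944% and 0.181% of thinned microglia. The median depth of oligodendrocytes was 6407 and 6404 UMIs. Myh8, a myosin heavy chain of developing muscle, had 109 and 0 UMIs, at least 50.5-fold higher, and a cortex ratio of 69.9. After thinning, a Myh8 UMI was held by 0.815% of DOCA-salt oligodendrocytes, 0.832% of endothelial cells, 0.778% of astrocytes and 0.472% of microglia, and by none of the thinned sham cells of these classes. The 5 lowest genes, Ecrg4, Prr32, Kcnj13, Cox8b and Krt18, were each present in choroid plexus epithelium of the sham library, at 213 CPM or more. In oligodendrocytes Ecrg4 was at 1.36 and 37.7 CPM, and the choroid list had a median of -5.01 in oligodendrocytes.

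Myelin genes did not pass 1.5-fold in oligodendrocytes, with 0 higher and 0 lower of 18 measured and a median log2 ratio of -0.08. Oligodendrocytes were gated on genes of this kind, such as Mog and Mag, so the gate may have narrowed this difference. Serpina3n, an inhibitor of granzyme B and other serine proteases that is induced in injured glia, was at 60.4 CPM in DOCA-salt and 5.29 CPM in sham oligodendrocytes, a ratio of 11.4 (9.8 to 13.4), and in 10.5% (9.5 to 11.5) and 1.31% (1.01 to 1.66) of thinned cells. Its ratio was 12.1 in cortex. Of 17 measured disease-associated oligodendrocyte genes 3 were higher and 2 lower, at a median of 0.19. The list of MHC class I presentation counted 4 higher and 1 lower of 16 measured, with a median of 0.42. H2-Q7 was at 4.19 and 1.84 CPM, H2-D1 at 85.9 and 59.6 CPM, and H2-K1 at 79.9 and 56.6 CPM. The list was mixed: the peptide transporter subunit Tap2 was among the higher genes, and the chaperone Calr was at 291 and 445 CPM.

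Endothelial cells of the DOCA-salt library held more RNA of listed activation genes, only some of which bind leukocytes at the vessel wall. The list counted 9 higher and 0 lower of 15 measured (background 5.93% and 3.22%), with a median log2 ratio of 0.78 against 0.04, and in cortex 6 higher and 0 lower of 15, median 0.41. Ackr1 (chr1:173331886-173333750), the chemokine-binding receptor of venules, had 165 UMIs in DOCA-salt and 1 in sham endothelial cells, a ratio of 139 (24.5 to 5505). Lcn2 (chr2:32384633-32388252), which withholds iron from bacteria, was at 148 and 4.89 CPM, a ratio of 30.3 (19 to 51.5), and in 9.39% (7.51 to 11.6) and 0.694% (0.226 to 1.61) of thinned cells. Lrg1, a leucine-rich glycoprotein that modifies TGF-beta signalling, was at 61.6 and 4.62 CPM. Vcam1, the adhesion receptor for lymphocytes and monocytes, was at 122 and 43.5 CPM, a ratio of 2.81 (2.35 to 3.37), and in 8.92% (7.08 to 11.1) and 4.03% (2.71 to 5.73) of thinned cells. All 4 were carried by a minority of endothelial cells. The other higher members were Vwf, Ch25h, Tnfrsf1a, Icam1 and Il1r1, with Icam1 at 163 and 94.8 CPM. Lcn2 is also a neutrophil transcript, at 9781 CPM in DOCA-salt neutrophils, and summed neutrophil markers in endothelial cells were at 140 and 8.15 CPM, and the part of free RNA was not tested.

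The complement list in endothelial cells counted 2 higher and 1 lower of 8 measured, at a median log2 ratio of 0.44. C4b, a component of the classical pathway, was at 58.4 CPM in DOCA-salt and 5.16 CPM in sham endothelial cells, a ratio of 11.3 (7.1 to 19.1), and summed with its copy C4a the ratio was 10.2 (6.56 to 16.8). Cd59b (chr2:104069849-104091187) and Cd59a (chr2:104095801-104115354), adjacent copies of the inhibitor of the membrane attack complex with a gap of 4.61 kb, lay on opposite sides of 1. Cd59b was at 37 and 3.53 CPM, a ratio of 10.5 (5.95 to 20.1), and Cd59a at 97 and 314 CPM, a ratio of 0.309 (0.276 to 0.346). Because reads can be split between near copies, their sum is the firmer value: 134 and 317 CPM, a ratio of 0.422 (0.382 to 0.466). Genes of NF-kB signalling and inflammation counted 7 higher and 0 lower of 19 measured, at a median of 0.47. They were led by Il1b at 13.5 and 1.9 CPM, Bcl3 at 44 and 18.7 CPM and Ptgs2, the inducible cyclooxygenase, at 17.8 and 8.15 CPM. Il1b is itself a microglial and neutrophil transcript, at 71.8 and 48.2 CPM in microglia. In microglia the same list counted 0 higher and 1 lower of 22 measured, at a median of 0.17.

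Barrier genes of the endothelium differed less, though endothelial cells were gated on genes of this kind, such as Cldn5 and Cdh5. Tight and adherens junction genes counted 1 higher and 0 lower of 15 measured, at a median log2 ratio of -0.01, and barrier transporters 2 higher and 0 lower of 20 measured, at a median of 0.14. Within the latter, the glutamine carrier Slc38a5 was at 335 CPM in DOCA-salt and 172 CPM in sham cells, while the glucose transporter Slc2a1 was at 1807 and 2688 CPM and the large amino acid carrier Slc7a5 at 396 and 589 CPM. Vascular tone genes counted 4 higher and 2 lower of 16 measured, with the adrenomedullin gene Adm at 67.5 and 43.2 CPM and its receptor partner Ramp2 at 1531 and 2331 CPM. Genes of contractile smooth muscle counted 0 higher and 7 lower of 13 measured in endothelial cells, with Acta2 at 4.11 and 101 CPM. Beside them stand the 2 and 19 smooth muscle cells of the libraries, and the list's median of -0.76 was -0.01 when endothelial cells were taken from clusters. Those clusters included 1 in which 58.3% of gated cells were endothelial. The 5 lowest genes by rule were Ecrg4, Kcna5, Zbtb16, Cd59a and Calml4. Kcna5, a voltage-gated potassium channel, had 4 and 46 UMIs, a ratio of 0.073 (0.0191 to 0.20), and Ecrg4 and Calml4 were again choroid plexus transcripts.

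In astrocytes Serpina3n (chr12:104406729-104414329) was at 58.1 CPM in DOCA-salt and 6.87 CPM in sham cells, a ratio of 8.45 (5.85 to 12.6), and in 10.8% (9.25 to 12.6) and 1.12% (0.485 to 2.2) of thinned cells. Bricd5, a BRICHOS domain gene, was at 32 and 4.35 CPM, and Slc2a4, the insulin-regulated glucose transporter GLUT4, at 12.6 and 1.15 CPM. Fshr, the receptor for follicle-stimulating hormone, had 52 UMIs against 1, a ratio of 23.2 (3.98 to 932). Eif3j2 had 108 UMIs against 5, a ratio of 9.62 (4.0 to 30.2), but summed with its near copy Eif3j1 the ratio was 1.17. On the lower side Pde10a (chr17:8525372-8986648), a phosphodiesterase that breaks down cyclic AMP and cyclic GMP, was at 17.8 and 258 CPM, a ratio of 0.0687 (0.0582 to 0.0807), beside 0.0678 in cortex. It was seen in 3.18% (2.33 to 4.24) and 26.9% (23.7 to 30.3) of thinned astrocytes and in 0.197% and 0.499% of thinned microglia. The median depth of astrocytes was 5815 and 5205 UMIs. Pde10a lies 268 kb from Ccr6, the gene that was higher in microglia. Adamts20, a matrix protease, was at 7.96 and 27.3 CPM, and Ecrg4 and Calml4 completed the lowest 5 with Zbtb16.

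The reactive astrocyte list counted 3 higher and 2 lower of 19 measured (background 4.69% and 3.23%), with a median log2 ratio of 0.31 against 0.03, Gfap at 269 and 217 CPM and Vim with a ratio of 1.27. Homeostatic astrocyte genes for glutamate, potassium and water handling counted 0 higher and 0 lower of 22 measured, at a median of 0.00. Astrocytes were gated on genes of this kind, such as Aqp4 and Slc6a11, so this count is no independent check of astrocyte identity. Genes of the unfolded protein response counted 0 higher and 2 lower of 15 measured, at a median of -0.27, led by the chaperone Hspa5 (BiP) at 316 and 511 CPM and the transcription factor Xbp1 at 44.1 and 75.9 CPM. DOCA acts on the mineralocorticoid receptor, whose known targets include sodium transport genes. The list of sodium and chloride transport, 26 genes, counted 1 higher and 0 lower of 20 measured in astrocytes, 5 higher and 1 lower of 20 measured in oligodendrocytes, 3 higher and 0 lower of 21 measured in microglia and 2 higher and 1 lower of 20 measured in endothelial cells. Its medians lay between 0.03 and 0.07 in these 4 classes. The only member called in astrocytes was Hsd11b1, an enzyme that regenerates active glucocorticoid and not a transporter. Hsd11b1 was at 421 and 272 CPM, a ratio of 1.55 (1.45 to 1.65), beside 0.933 in cortex. No measured transporter of the list was thus past 1.5-fold in astrocytes. The receptors themselves differed little, with the mineralocorticoid receptor Nr3c2 at 108 and 113 CPM and the glucocorticoid receptor Nr3c1 at 187 and 175 CPM.

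Among glucocorticoid target genes, lower members outnumbered higher ones in oligodendrocytes, astrocytes, microglia and endothelial cells. These genes are switched on when the glucocorticoid receptor, bound by corticosterone, enters the nucleus, and 23 were listed. Oligodendrocytes counted 3 higher and 7 lower of 22 measured (background 7.28% and 2.81%), at a median log2 ratio of -0.30, and astrocytes 1 higher and 6 lower of 21 measured, at a median of -0.25. Microglia counted 0 higher and 4 lower of 20 measured and endothelial cells 0 higher and 4 lower of 19 measured, at medians of -0.21 and -0.10. Pericytes counted 3 higher and 1 lower of 13 measured. In oligodendrocytes, endothelial cells and astrocytes, Zbtb16 led the list by its interval. Zbtb16 (chr9:48654297-48836222), the transcriptional repressor PLZF, was at 24.8 CPM in DOCA-salt and 122 CPM in sham oligodendrocytes, at 13.7 and 86.9 in endothelial cells and at 22.2 and 78.1 in astrocytes. The ratios were 0.204 (0.187 to 0.222), 0.157 (0.117 to 0.208) and 0.285 (0.239 to 0.338), and 5.03% (4.34 to 5.8) and 20.3% (19.2 to 21.5) of thinned oligodendrocytes held a UMI. Cortex ratios were 0.16, 0.124 and 0.241.

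Fkbp5, the co-chaperone that dampens the receptor, was at 7.34 and 24.5 CPM in oligodendrocytes, 2.96 and 11.5 CPM in astrocytes and 33.4 and 53.8 CPM in microglia, lower in each. Sgk1, a kinase that raises sodium channel activity and is a target of both corticosteroid receptors, was at 385 and 889 CPM in oligodendrocytes, a ratio of 0.433 (0.423 to 0.443), and in 48.3% and 77% of thinned cells. Cdkn1a, the cell cycle inhibitor p21, was at 29.2 and 58.3 CPM. Lower members thus included the receptor's feedback genes, but others lay on the opposite side in oligodendrocytes: Dusp1, a phosphatase that is also an immediate early gene, was at 303 and 145 CPM, Pdk4 at 15.3 and 8.36 CPM and the metallothionein Mt2 at 132 and 83.7 CPM. In endothelial cells the lower members were Zbtb16, Map3k6 at 11.2 and 40.8 CPM, Tsc22d3 and the sulfotransferase Sult1a1 at 52.9 and 111 CPM. In astrocytes Hif3a was at 43.4 and 89.6 CPM. The Sgk1 promoter window, chr10:21993658-21993757 on the plus strand (RefSeq, GRCm38.p6), starts 232 bases before the start site and is shown because it holds the full palindrome of the consensus glucocorticoid response element (AGAACA, any 3 bases, TGTTCT) in capitals:
Sgk1: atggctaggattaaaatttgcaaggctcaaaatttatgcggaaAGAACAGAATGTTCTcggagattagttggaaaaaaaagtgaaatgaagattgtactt
Of all genes with a promoter 3 held this palindrome (0.0111%), and of the 21 listed target genes with a promoter in the table, Sgk1 alone.

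Heat shock genes, the chaperones that HSF1 switches on when proteins unfold, had negative median log2 ratios in all 5 large classes. Of 18 listed genes, oligodendrocytes counted 2 higher and 4 lower of 18 measured, microglia 0 higher and 6 lower of 18 measured, astrocytes 0 higher and 4 lower of 18 measured and endothelial cells 0 higher and 2 lower of 18 measured. The median was -0.29 in pericytes, and in the former 4 classes -0.36, -0.45, -0.18 and -0.17, against 0.05, -0.02, 0.03 and 0.04 over all measured genes, and the cortex medians were -0.30, -0.46, -0.28 and -0.34. In oligodendrocytes the small heat shock protein Cryab was at 5163 CPM in DOCA-salt and 7819 CPM in sham cells and Hspb1 at 92.4 and 150.1 CPM. Hspa1a, the inducible Hsp70, and Dnajb1, its partner, went the other way in oligodendrocytes, at 264 and 171 CPM and 183 and 109.8 CPM. In microglia Hspa1a was at 794 and 1279.7 CPM. Hspa1a and Hspa1b are near copies, and summed they had ratios of 0.608 in microglia and 1.44 in oligodendrocytes, so the inducible pair was lower in the first class and higher in the second. Hsph1, an exchange factor for Hsp70, was at 50.6 and 87.4 CPM in microglia. Cryab in microglia, endothelial cells and astrocytes stood beside lower myelin RNA, whose list medians there were -0.51, -0.63 and -0.59, and the part of that RNA was not tested. In endothelial cells, Hspb1, an abundant transcript of those cells, was at 4907 and 8581 CPM.

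Of 13 listed heat shock genes with a promoter in the table, Chordc1, Hspd1, Hspe1 and Hsph1 held the heat shock element, searched as GAA, TTC and GAA with any 2 bases between neighbours and as its reverse complement, which 0.662% of all genes with a promoter hold. The Hspe1 window is shown as an example, chr1:55088018-55088117 on the plus strand from 130 bases before the start site, with overlapping matches in capitals:
Hspe1: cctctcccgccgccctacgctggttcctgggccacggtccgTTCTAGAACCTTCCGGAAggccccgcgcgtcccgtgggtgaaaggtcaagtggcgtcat
A match in a window describes letters only. Of the 17 named genes shared by all 5 classes, 13 had a promoter in the table and none held any of the motifs searched, which included the consensus NF-kB site present in 0.174% of genes with a promoter.

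Immediate early genes, the fast transcription factors and phosphatases that respond to activity, stress and tissue dissociation, were higher in DOCA-salt oligodendrocytes and astrocytes. Oligodendrocytes counted 14 higher and 0 lower of 22 measured, at a median log2 ratio of 0.68, and astrocytes 11 higher and 0 lower of 20 measured, at a median of 0.62. Microglia counted 0 higher and 0 lower of 22 measured, endothelial cells 1 higher and 0 lower of 22 measured and pericytes 3 higher and 0 lower of 17 measured, at medians of 0.05, 0.22 and 0.22. Fos was at 1214 CPM in DOCA-salt and 426 CPM in sham oligodendrocytes, a ratio of 2.85 (2.79 to 2.91), and at 502 and 222 CPM in astrocytes, a ratio of 2.26 (2.11 to 2.43). After thinning, a Fos UMI was held by 58.5% and 40.4% of oligodendrocytes and 50.8% and 34.2% of astrocytes, but by 97.1% and 97.4% of microglia, so microglia had it nearly throughout in both libraries. Egr2 was at 11.8 and 3.13 CPM and Junb at 424 and 198 CPM in oligodendrocytes, while Btg2 was at 202 and 108 CPM and Jun at 492 and 301 CPM in astrocytes. The cortex oligodendrocyte list had a median of 0.69 and the astrocyte list 0.60. Time from dissection to capture is not given for either library.

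**Figure D3:**
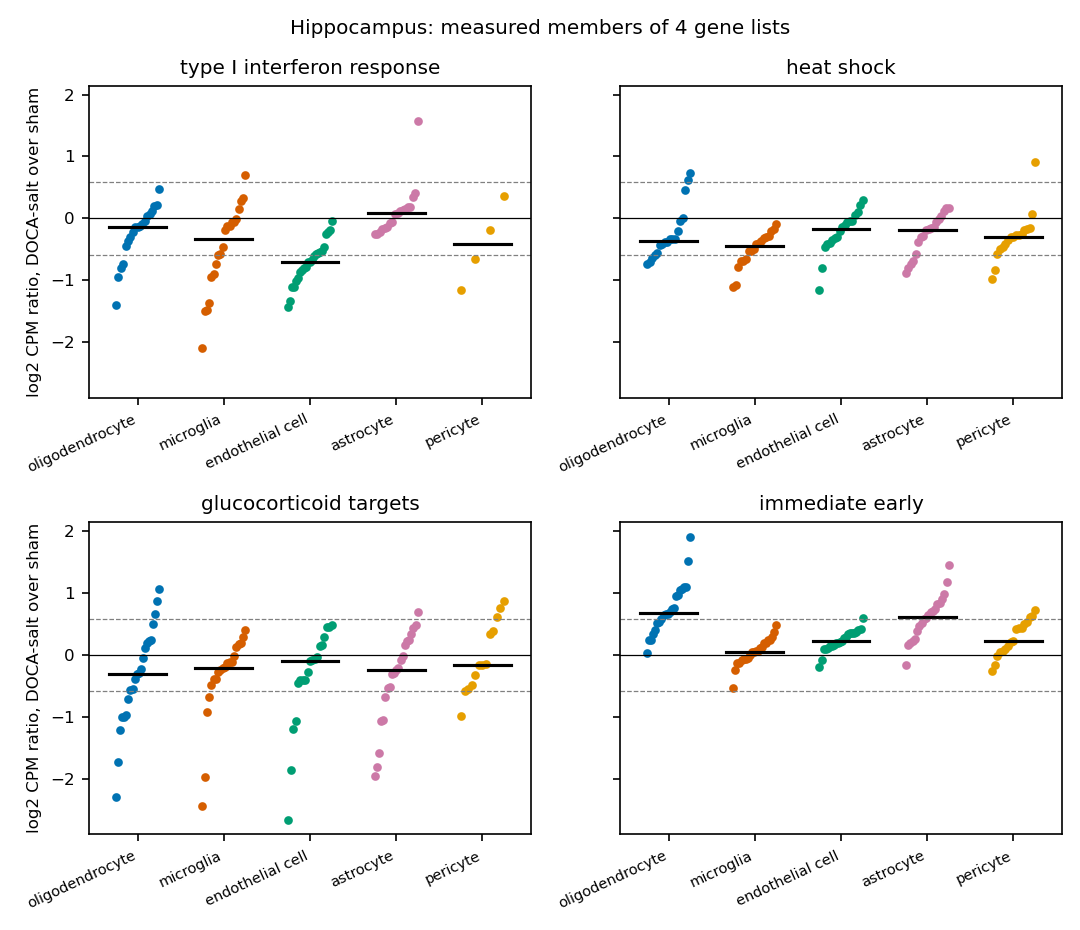
Log2 ratio of DOCA-salt over sham CPM (vertical axis) of each measured member of 4 gene lists in the 5 large classes, with a bar at the list median and dashed lines at 1.5-fold. Interferon members lie mostly below 0 in microglia and endothelial cells, heat shock members mostly below 0, glucocorticoid targets on both sides and immediate early members mostly above 0 in oligodendrocytes and astrocytes.

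Pericytes rest on 186 and 115 cells, and 21.0% and 31.3% of them lay near the gate's limit. Rtn4rl1, a relative of the Nogo receptor, was at 98.3 CPM in DOCA-salt and 26 CPM in sham pericytes, a ratio of 3.77 (1.86 to 8.67), and Slc6a6, the taurine transporter, at 364 and 179 CPM. Ndst3, Ndufv1 and Rnaset2a completed the highest 5, at ratios of 2.64, 2.29 and 2.17, the last of which was 1.37 when summed with its copy Rnaset2b. On the lower side, Cthrc1, a secreted collagen repeat protein of injured vessel walls, was at 40.7 and 208 CPM, a ratio of 0.195 (0.118 to 0.314), beside 0.118 in cortex. Sfrp2, a Wnt antagonist, Nts, the neurotensin gene, Slc16a1, the lactate carrier, and Pglyrp1, which binds bacterial cell wall, had ratios of 0.22, 0.374, 0.287 and 0.461. Slc6a6, Slc16a1 and Pglyrp1 were detected more often in endothelial cells. Slc6a6 was seen in 87.3% and 79.4% of thinned endothelial cells and in 30.6% and 23.6% of thinned pericytes. Summed endothelial markers were at 2638 and 2644 CPM in pericytes, and the part of endothelial RNA in these values was not tested. Several of these gene ratios also depend on how pericytes are delimited. Taken from clusters, with 400 cells in each library, the log2 ratio of Slc16a1 was 0.04 against -1.80, that of Rtn4rl1 0.69 against 1.92 and that of Slc6a6 0.29 against 1.02. That cluster was itself mixed, with 74.1% of its gated cells being pericytes. Metallothioneins, which bind zinc and copper, counted 3 higher and 1 lower of 5 measured, with Mt3 at 435 and 179 CPM, while Mt3 was at 4804 and 4598 CPM in astrocytes, whose RNA list had a median of 1.28 in pericytes.

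**Figure D4:**
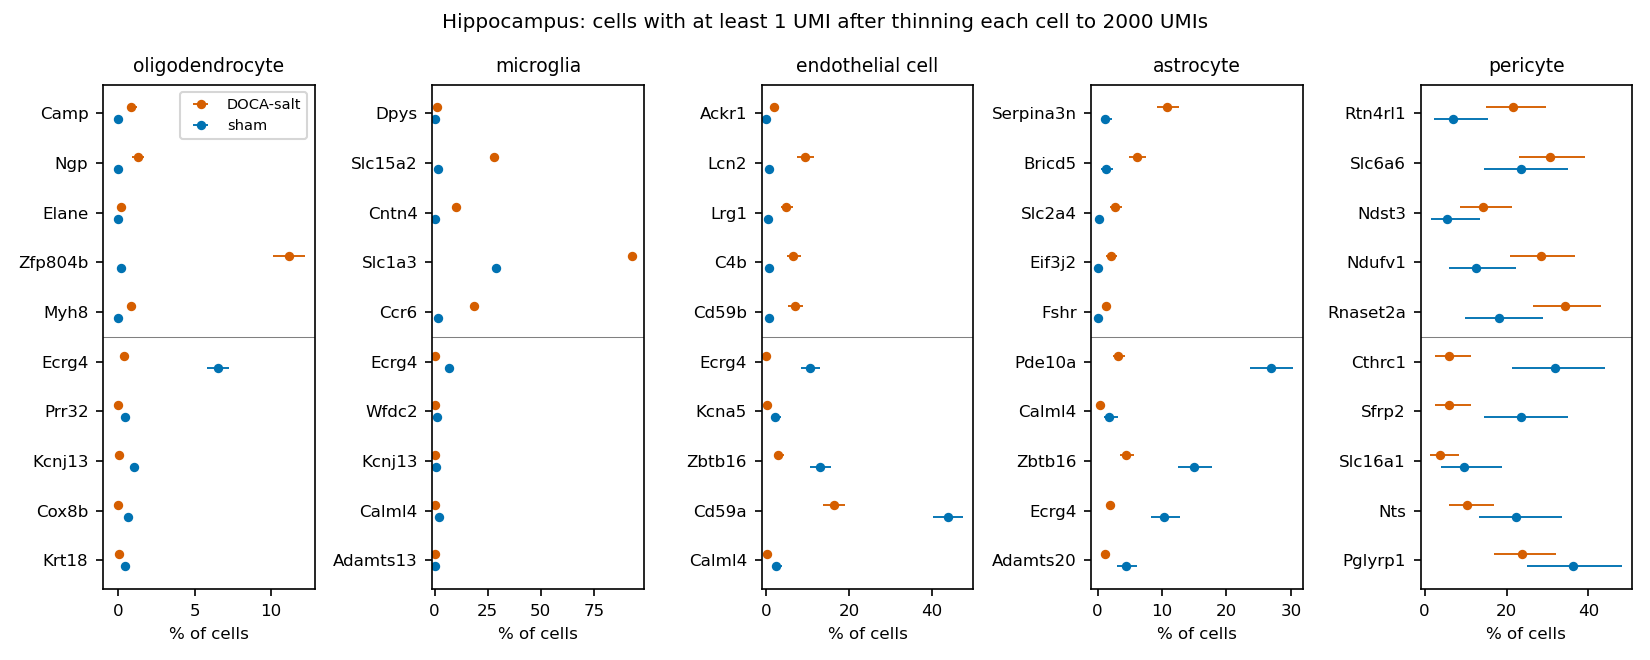
Percent of cells with at least 1 UMI of each gene (horizontal axis) after thinning to 2000 UMIs per cell, in the DOCA-salt and sham libraries, for the 5 genes with the highest ratios (above the line) and the 5 with the lowest (below) in each class, with exact 95% binomial intervals. Slc1a3 in microglia, at 92.9% and 28.8%, is the only gene of the set detected in most cells of its class.

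Genes of oxidative phosphorylation and of the ribosome differed little. Of nuclear oxidative phosphorylation genes, none was past 1.5-fold in oligodendrocytes, microglia, endothelial cells or astrocytes, and the same held for the 24 ribosomal protein genes. Circadian clock genes in oligodendrocytes counted 5 higher and 0 lower of 17 measured (background 7.28% and 2.81%), at a median of 0.39. Cholesterol synthesis genes in endothelial cells counted 4 higher and 0 lower of 20 measured (background 5.93% and 3.22%), at a median of 0.27. Hours of tissue collection are not given in the sources used here.

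**Figure D5:**
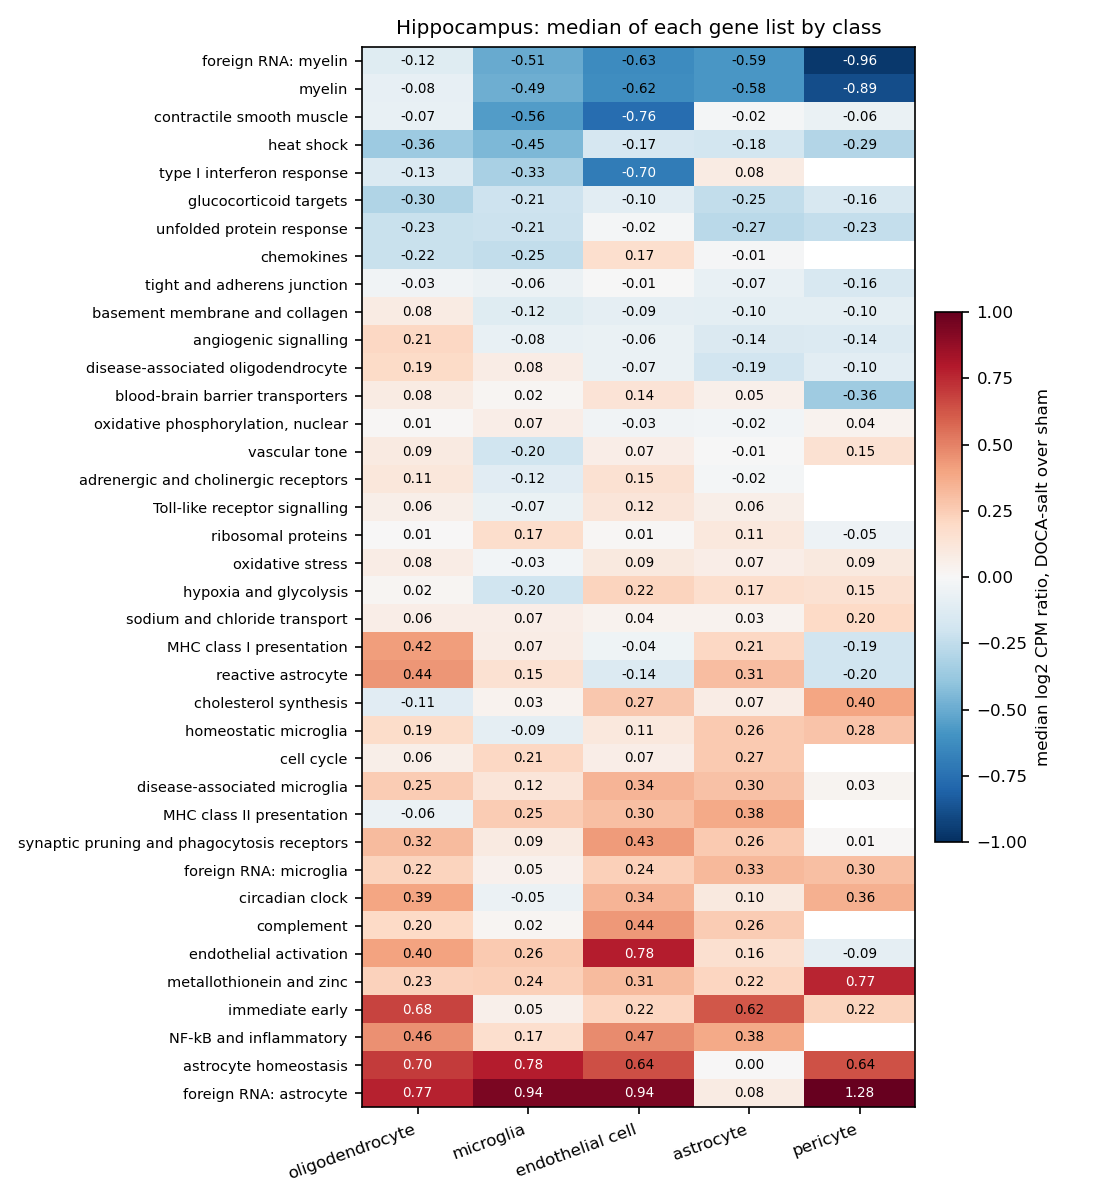
Median log2 ratio of DOCA-salt over sham CPM (colour and printed value) for each gene list (lines) with at least 5 measured members in at least 2 of the 5 large classes (columns). Outside astrocytes the astrocyte RNA list lies between 0.77 and 1.28, and outside oligodendrocytes the myelin RNA list between -0.51 and -0.96. Endothelial activation in endothelial cells, at 0.78, and immediate early genes in oligodendrocytes and astrocytes, at 0.68 and 0.62, are high, and type I interferon genes in endothelial cells, at -0.70, are low.

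The next classes by size were read after their values were seen, and rest on few cells. In border macrophages, with 68 and 55 cells of which 30.9% and 41.8% lay near the gate's limit, 144 of 2107 measured genes were higher (6.83%) and 173 lower (8.21%). Blood RNA differed there too, with 4 of 4 listed genes higher at 8075 and 123 UMIs, and 4 of 7 measured genes of the astrocyte RNA list were higher. The myelin RNA list counted 0 higher and 5 lower of 6 measured, median -0.71. The part of this RNA in the values of the class was not tested. Chemokines counted 2 higher and 0 lower of 10 measured, at a median of 0.03. Ccl8, which attracts monocytes, had 396 UMIs in DOCA-salt and 54 in sham cells, a ratio of 5.12 (3.85 to 6.94), and Ccl2 and Ccl12 had ratios of 2.83 (2.47 to 3.26) and 2.31 (2.04 to 2.61). Not all of these can be among the 10 measured list members, of which only 2 were higher. The lectins Cd209a, Cd209b, Cd209f and Clec10a had ratios of 3.52, 3.49, 2.6 and 2.13. Clec10a was also a gate marker of border macrophages and Cd209a of monocytes or dendritic cells, so the levels of both were partly set by the gate. Heat shock genes counted 0 higher and 9 lower of 17 measured, median -0.65, with Hspb1 at 35 and 241 UMIs. In ependymal cells, which line the ventricle, 220 of 2873 measured genes were higher (7.66%) and 212 lower (7.38%), and 48.1% and 29.5% of the cells lay near the gate's limit. Choroid plexus RNA summed to 101 and 3299 UMIs in them, blood RNA to 333 and 198 UMIs and myelin RNA to 987 and 1671 UMIs. The part of this RNA in the values was not tested. Heat shock genes counted 3 higher and 6 lower of 17 measured, median -0.33. Among the higher, Hspa1a had 337 and 65 UMIs, a ratio of 5.39 (4.12 to 7.14), and its near copy Hspa1b 148 and 100 UMIs. Dbp, a clock output gene, had 50 and 10 UMIs. Immediate early genes counted 5 higher and 0 lower of 16 measured, median 0.36, with Fos at a ratio of 1.64 (1.46 to 1.85). Npy, the neuropeptide Y gene, had 9 and 146 UMIs.

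Over all cells summed, the widest ratios followed the rare classes. Ngp (chr9:110419747-110423012) had 5535 UMIs in the DOCA-salt and 4 in the sham library, a ratio of 1432 (559 to 5259), and Camp (chr9:109847379-109849617) had 5498 and 7, a ratio of 813 (394 to 2023). Ltf, lactoferrin, had 725 and 2 UMIs, Elane 952 and 0, at least 328-fold higher, and Cstdc5, a stefin, 303 and 0, at least 105-fold higher. These are transcripts of neutrophils and their precursors, and 132 cells of the DOCA-salt library against 4 of the sham library held at least 5 UMIs of such genes, 37 of the 132 gated as neutrophils. The lowest were Prr32, Sostdc1, Kcnj13, Defb11 and Htr2c, with UMI sums of 8 and 1025 for Prr32 and 25 and 1588 for Htr2c, a serotonin receptor of choroid plexus. In bulk sums of this kind, fewer cells of a type and less RNA per cell cannot be told apart. With class makeup set equal, the log2 ratio of Prr32 was -0.88 against -6.95 and that of Kcnj13 -2.14 against -6.09. In that setting the DOCA-salt choroid plexus profile came from 1 cell of 1978 UMIs, weighted up, beside 124 sham cells. The equalised values of these choroid plexus genes thus rest on very few counts.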

How the data were processed

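The deposited matrices hold counts of UMIs per gene and barcode for 32285 genes, made by the authors with fastp, STAR, Subread and Seurat on GRCm38, per the submitters' processing notes. Versions, annotation release and counting strand are not given in the sources used here, so reads of overlapping, antisense or near-identical genes may be split or shared. All deposited barcodes held at least 500 UMIs. Keeping barcodes that had 300 or more genes and no more than 20% mt- UMIs removed 119 of 11360 from the DOCA-salt and 163 of 11394 from the sham hippocampus library. Cells were gated by 8 markers for each of 18 classes, and UMIs were summed per library and class. Doublets were removed only in an alternative, with Scrublet in scanpy, which called 480 and 574 cells.

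Gene ratios compare CPM of these sums, with exact conditional 95% intervals, and shares carry exact binomial ones. Both cover counting error only. With a single library on each side, the design allows no test. Genes needed 50 UMIs over both libraries and a fold of 1.5 to be called, and classes at least 100 cells in each library to be followed in full. A fold against 0 used a floor of 3 counts. Named genes were the 10 highest and lowest shared by 5 classes (by the weakest interval bound), the next 5 highest and 5 lowest in each class and over all cells, and up to 4 members of each list described, plus those needed to show that it was mixed. Genes starting with mt-, Rps, Rpl, haemoglobin or immunoglobulin prefixes and the like, and genes under 0.2 of their highest level among the 5 large classes, were passed over. The members, the 41 gene lists and the markers were chosen with earlier results of these data known. Mx1, Mx2, Clec7a and 1500015O10Rik were not analysed here. Gene positions come from the GENCODE vM21 annotation of GRCm38, which matched 32158 gene identifiers, and promoters from RefSeq on GRCm38.p6.

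Alternatives varied the barcode filter, gate, doublets, denominators, minimum UMIs, scaling, depth, cell weights and class makeup. The removal of cells with neutrophil RNA and the sum of Ubb with its copies were added after the data were seen. The ratio and interval code was tested on simulated data. Tools were Python 3.11.15, numpy 2.4.6, scipy 1.17.1, pandas 2.3.3, scanpy 1.11.5, matplotlib 3.10.9 and blastn 2.17.0.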

Additional observations from a re-analysis of the deposited data

Results flagged for a closer look

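For 7 values the hippocampus and cortex comparisons lay on opposite sides of 1, with both counting intervals clear of 1 and, for genes, both ratios past 1.5-fold. Each rests on 1 library per tissue and treatment, and the difference between tissues was not tested. The labels contradict the title of 1 library in each pair.

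The share of microglia was 1.18 times the sham share in hippocampus and 0.921 times in cortex. Gnb1l in endothelial cells was at 2.42 times the sham level in hippocampus and 0.627 times in cortex. Ttr, the choroid plexus transcript, was at 0.00643 times the sham level in hippocampal oligodendrocytes and 0.00789 times in hippocampal microglia, against 1.52 and 1.63 in cortex. The neutrophil granule genes Ngp, Camp and Ltf over all cells were at 1432, 813 and 375 times the sham level in hippocampus and at 0.00369, 0.0046 and 0.00835 times in cortex. In cortex their UMI sums were 4 in the DOCA-salt and 1106 in the sham library for Ngp, and 3 and 665 for Camp. The library with most of this RNA was thus the DOCA-salt library in hippocampus and the sham library in cortex.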

How the results depend on the processing

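Of list medians under the alternatives, 2531 stayed near their value, 84 moved by more and 0 changed sign among those past 1.5-fold. The 2 rescalings shift all genes of a class alike and by little, so the 226 medians under each could not count as moved. Equal class makeup, which applies to all cells only, moved 17 and left 23, and clusters moved 17 and left 169. Of values of named genes, 3460 stayed within the interval, 390 moved out of it and 8 changed sign. The minimum of 20 or 200 UMIs does not alter a gene's ratio, so 340 and 258 of the unmoved values could not move. With clusters 234 stayed, 75 moved and 2 changed sign, and with thinning 189 stayed, 77 moved and 1 changed sign. Equal weight per cell left 266 and moved 74, and equal class makeup left 6 and moved 19. With classes taken from clusters, the share ratio was 1.07 for microglia, 0.839 for oligodendrocytes and 0.999 for pericytes. Each cluster took the most common class of its gated cells, and some clusters held several classes. The other 88 share ratios stayed near their values.

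The numbers of genes past 1.5-fold depended on the minimum of UMIs. At 20 UMIs, higher and lower genes numbered 1522 and 704 in oligodendrocytes, 908 and 850 in microglia, 1075 and 587 in endothelial cells, 1039 and 634 in astrocytes and 898 and 742 in pericytes. At 200 UMIs they numbered 401 and 149, 177 and 162, 166 and 116, 165 and 150, and 22 and 20, and over all cells 1252 and 458. Thinned to 2000 UMIs per cell, they numbered 1284 and 488 over all cells and 111 and 107 in pericytes, and oligodendrocytes had 580 higher. Equal class makeup left 860 higher over all cells. Lower genes in microglia numbered 744 with the looser gate and 869 with clusters, where 39.6% and 34.7% of calls were higher against 52.1%. In oligodendrocytes from clusters 83.8% of calls were higher against 72.1%. Pericytes had 162 higher with the stricter gate, 425 higher and 544 lower from clusters, and 336 lower with equal weight per cell.

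Signs of the log2 ratio turned for Atp6v0b in thinned pericytes (0.13), Slc16a1 in pericytes from clusters (0.0398), Hsp90aa1 in astrocytes from clusters (-0.0149) and H2-Aa in microglia with the looser gate (-0.0321). Summed with its copies, Ubb had 0.13 in microglia, 0.14 in endothelial cells, 0.17 in astrocytes and 0.21 in pericytes. For the other changes the cause was not tested. Neutrophil list medians that were infinite, with 0 counts in the sham library, have no value. No paired analysis was possible because each group held 1 library. Pericyte, border macrophage and ependymal values rest on few cells.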

Other observations

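Several genes far apart in the hippocampus lay at nearly the same ratio in cortex, given as values only. Zbtb16 was at 0.204 times the sham level in hippocampal and 0.16 times in cortical oligodendrocytes, and Pde10a in astrocytes at 0.0687 and 0.0678 times. Serpina3n in oligodendrocytes was at 11.4 and 12.1 times, and Cntn4 in microglia at 27.2 and 31.5 times. The unnamed gene model Gm47283 was at 57.5 CPM in DOCA-salt and 360.1 CPM in sham hippocampal microglia. Genes chosen here were picked after their values were seen.

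An interval bound past 2-fold in at least 1 class was found for 147 nameable genes. Sorted by position among themselves, these held 20 successive pairs within 1 Mb. Other genes may lie between the members of a pair. The same count over all measured genes was not made, so these pairs have no background. Slc1a3 and Ranbp3l, 257 kb apart on chromosome 15, were both higher in DOCA-salt microglia, with log2 ratios of 3.56 and 3.62. Ccr6 and Pde10a, 268 kb apart on chromosome 17, had log2 ratios of 3.64 in microglia and -3.86 in astrocytes. Camp and Ngp lay 570 kb apart on chromosome 9.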
